A study of Homo sapiens with 12 samples.

Results

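The HOX cluster genes were all genes of the deposited tables whose symbol is HOXA, HOXB, HOXC or HOXD followed by a number, 39 of 60583 genes. The HOXA cluster on chromosome 7 held 11 of them, HOXB on chromosome 17 held 10, and HOXC on chromosome 12 and HOXD on chromosome 2 held 9 each. HOX genes encode homeodomain transcription factors that give cells their position along the head-to-tail axis and the limbs. They sit side by side in each cluster, and their order follows the body axis: low-numbered (anterior) genes act towards the head and high-numbered (posterior) genes towards the tail and the ends of the limbs. Genes with the same number in different clusters are paralogues, descended from 1 ancestral gene. Connective tissue and bone cells keep a HOX pattern set in the embryo.

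Newly made RNA was measured by TT-seq, which captures transcripts labelled with 4-thiouridine, in 12 libraries of 4 groups with 3 replicates each. All were U2OS cells, derived from a human osteosarcoma, and all were collected 48 hours after transfection of a control siRNA (siCtrl) or an siRNA to INTS11 (siINTS11). INTS11 is the endonuclease of Integrator, which cleaves nascent RNA of RNA polymerase II. U2OS groups had no further treatment named. U2OS-AsiSI groups carried AsiSI-ER, a DNA-cutting enzyme joined to an oestrogen-receptor domain, and both had OHT (4-hydroxytamoxifen) for 1 hour, so line, nuclease and OHT differ together between the lines. Whether the line is 1 clone, what drives the nuclease, and whether replicates were separate cultures are not given in the sources used here, so p-values measure only the spread between these libraries, which may be technical.

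Libraries held 20704611 to 38065726 counted reads, of which 4028 to 7475 fell on HOX genes. INTS11 fell in U2OS, by 0.42 on the log2 scale (SE 0.09, edgeR adjusted p 6.08e-05). Its value in U2OS-AsiSI was -0.13 (SE 0.08, edgeR adjusted p 0.172). Libraries of the siRNAs did not overlap for INTS11 in either line. Counts of newly made RNA do not measure the stock of INTS11 mRNA or its protein, so siINTS11 below means the libraries labelled so. Of the 10 osteoblast and mesenchyme markers, 5 had enough reads to be tested in each line: RUNX2, SPARC, COL1A1, VIM and ALPL. COL1A2, SP7, IBSP, TWIST1 and BGLAP did not, and BGLAP had 0 reads in every library. RUNX2 fell by 0.84 and 1.07 and COL1A1 by 0.46 and 0.26 on the log2 scale in U2OS and U2OS-AsiSI, and ALPL rose by 1.47 and 1.31. The summed level was 896 to 945 CPM in U2OS siCtrl and 650 to 697 CPM in U2OS siINTS11 libraries (CPM, reads scaled to a common library size by TMM, the trimmed mean of M-values). In U2OS-AsiSI it was 771 to 783 and 583 to 641 CPM. Of 4 haematopoietic markers none could be tested, and they summed to at most 0.317 CPM. The 3 endothelial markers rose in both lines, from a sum of 6.10 to 7.44 up to 14.1 to 15.1 CPM in U2OS and from 5.90 to 6.55 up to 13.2 to 13.7 CPM in U2OS-AsiSI. Epithelial markers (5 genes) summed to 84.8 to 90.8 and 101 to 107 CPM in U2OS and to 93.3 to 103 and 124 to 136 CPM in U2OS-AsiSI. Of the 4 epithelial markers tested, 4 rose in U2OS and 2 in U2OS-AsiSI. Of all genes tested 34.5% rose in U2OS and 35.4% in U2OS-AsiSI. Neural markers (4 genes) summed to 513 to 522 and 188 to 202 CPM in U2OS and to 358 to 393 and 129 to 144 CPM in U2OS-AsiSI. Only 2 of the 4 were tested, and they went opposite ways. The log2 fold changes in U2OS and U2OS-AsiSI were -1.47 and -1.49 for NCAM1 and 0.26 and 0.29 for SYP. The part of these lists in the HOX results was not tested.

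What could be counted came first, because HOX genes overlap. Reads were counted over whole gene spans, introns included, and a base that 2 genes share on 1 strand gave reads to neither: each of the 9222 genes without a base of its own on its strand had 0 reads in all 12 libraries. Bases that no other gene on the strand overlaps are called countable here. By that measure 15 HOX genes were fully countable, 12 partly, and 12 had no countable base. Those 12 were HOXA4, HOXA5 and HOXA6, HOXB4, HOXB5, HOXB8 and HOXB9, HOXC5, HOXC6, HOXC8 and HOXC9, and HOXD4. Most are central genes, and 1 long transcript model often covers several: the spans of HOXA3, HOXB3, HOXB7, HOXC4, HOXC6 and HOXD3 run across their neighbours.

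**Figure D1:**
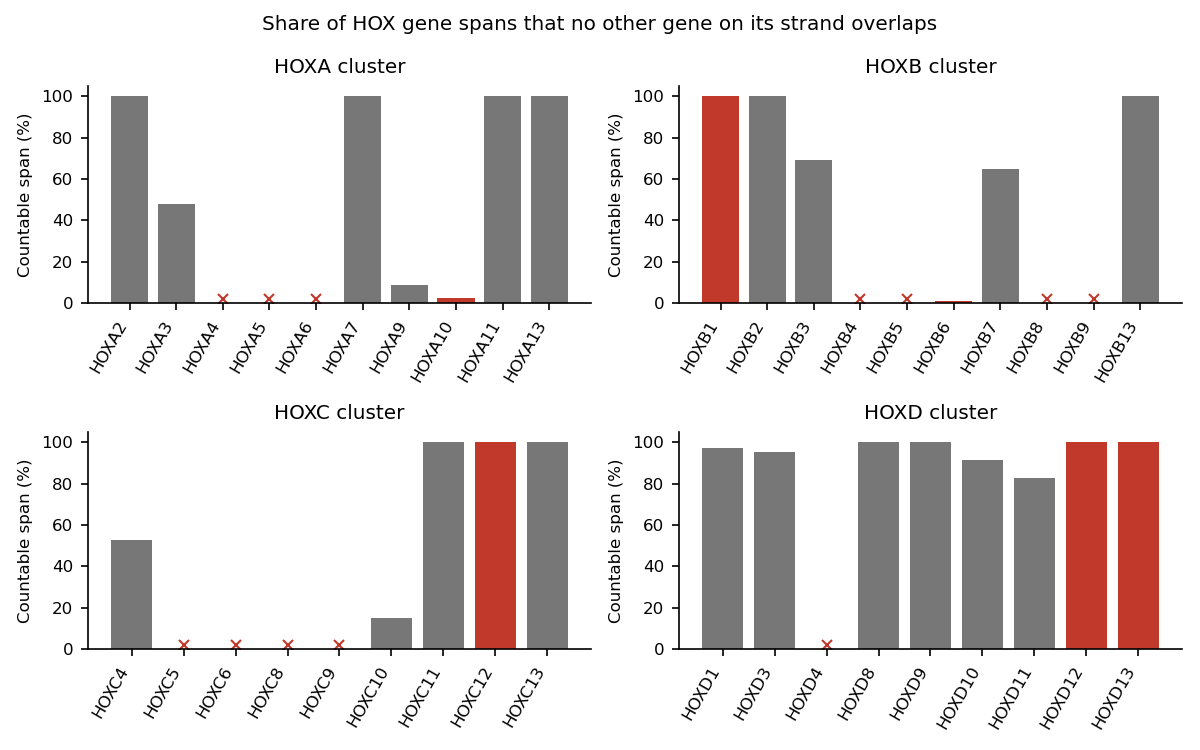
Countable share of HOX gene spans in percent, by cluster from paralogue group 1 to 13. Red marks genes under a mean of 10 reads in all 4 groups, and a cross marks a gene with no countable base; HOXB1, HOXC12, HOXD12 and HOXD13 are red at 100%.

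Genes near silence were those with a mean under 10 reads in each of the 4 groups. There were 18, and 12 of them had no countable base, so their 0 reads say nothing of their transcription. HOXA10, with 248 countable bases (2.56% of its span), and HOXB6, with 80 (0.866%), had at most 1 read in any library. Only 4 were near-silent and fully countable. HOXB1, a hindbrain gene, had 3, 1 and 0 reads in U2OS siCtrl, 1, 1 and 0 in U2OS siINTS11 and 0 in all 6 U2OS-AsiSI libraries, where a count of 0 allows up to 3. HOXC12 had 6, 2 and 5 reads in U2OS siCtrl and at most 3 elsewhere. HOXD12 had at most 5 and HOXD13, a gene of digit formation, at most 2. These few reads allow no comparison between groups. Just inside the limit stood HOXC12 and HOXD12, each with a highest group mean of 4.33 reads, and just outside it HOXD1 with 16 and HOXA2 with 16.7. The other 21 genes were 7 of HOXA, 4 of HOXB, 4 of HOXC and 6 of HOXD.

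Small RNAs also lie within the HOX spans. Of the microRNA genes there, 6 were listed (the MIR10, MIR196 and MIR615 genes), and none of these had a countable base or a read; 3 of their mature products are shown, because HOXB3 and HOXB7, which surround 2 of them, hold most HOXB reads, and because miR-196a and miR-196b share a seed across clusters. Capitals mark the seed, bases 2 to 8, which pairs with target RNAs (RefSeq, GRCh38.p14).
hsa-miR-10a-5p: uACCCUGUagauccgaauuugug
hsa-miR-196a-5p: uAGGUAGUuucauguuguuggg
hsa-miR-196b-5p: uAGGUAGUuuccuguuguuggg
The miR-10a product lies inside HOXB3 (chr17:48579904-48579926), a miR-196a copy inside HOXB7 (chr17:48632532-48632553) and miR-196b inside HOXA9 (chr7:27169528-27169549), all on the minus strand. Both miR-196 products share the seed AGGUAGU. Their output was not measured by these counts.

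Levels were compared between genes per kilobase. In U2OS siCtrl, per kb of countable span, HOXB7 was highest at 2.75 ± 0.126 CPM per kb (SD, n = 3), followed by HOXD10 at 2.60 ± 0.0706, HOXA11 at 1.94 ± 0.162 and HOXD11 at 1.73 ± 0.128. HOXA9 (1.63 ± 0.316, on 8.61% of its span) and HOXB3 (1.58 ± 0.0610) came next and lay within their spread of each other, as did HOXA11 and HOXD11. Posterior genes filled 4 of the first 5 places in U2OS siCtrl, while HOXD12, HOXD13 and HOXC12, posterior too, were near silence. The places differed in the other groups. HOXD11 stood at place 8 in U2OS siINTS11, 6 in U2OS-AsiSI siCtrl and 11 in U2OS-AsiSI siINTS11. In that last group HOXD10 stood at place 7 and HOXD9 at 5. Most of the 12 genes without a countable base are central and could not be placed, so the places partly follow which genes can be counted. Of the genes tested in U2OS, 10 were posterior, 4 central and 7 anterior. The countable bases of HOXA9 are 100% exonic and those of HOXB7 8.88%. Per kb of whole span the order changed where much of a span was uncountable: HOXD10 led at 2.37, HOXA11 (1.94) passed HOXB7 (1.79), HOXB3 was at 1.09, HOXC4 at 0.465 in place of 0.880 per countable kb, and HOXA9 at 0.140. Within a cluster neither end was uniformly high. In HOXD, HOXD13 and HOXD12 were near 0, HOXD11 to HOXD8 stood between 0.789 and 2.60 per countable kb in U2OS siCtrl, and HOXD3 (0.108 ± 0.00807) and HOXD1 (0.172 ± 0.0802) were low again. In HOXA, HOXA11 was high, with HOXA2 (0.0727 ± 0.0322), HOXA3 (0.217 ± 0.0205), HOXA7 (0.378 ± 0.0385) and HOXA13 (0.205 ± 0.0240) lower.

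**Figure D2:**
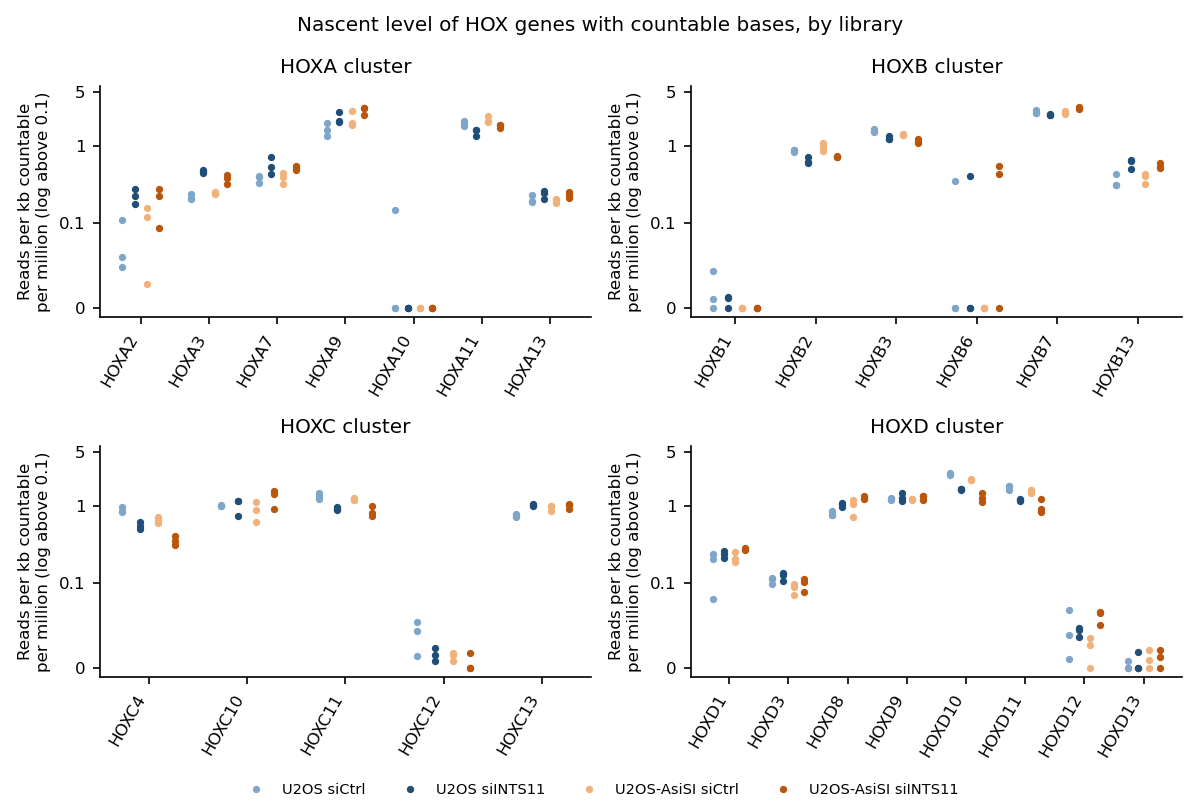
CPM per kb of countable span in each library, for the HOX genes drawn that have countable bases, on an axis linear to 0.1 and logarithmic above. Each point is a library and each colour a group; HOXB7 lies highest in U2OS siCtrl, at 2.75, and HOXD13 near 0.

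Most HOX reads came from few genes. HOXB3 and HOXB7 gave 53.9% and 41.5% of HOXB reads in U2OS siCtrl, HOXC4 58.8% of HOXC reads and HOXD10 60.6% of HOXD reads, while in HOXA the largest share was 38.3%, from HOXA11. Together the HOX genes held 0.0192% of all reads in U2OS siCtrl and 0.0190% in U2OS siINTS11 (exact two-sided permutation p 0.6). In U2OS-AsiSI the shares were 0.0189% and 0.0199% (exact p 0.4). With 3 libraries a group this exact permutation test cannot go below p = 0.1.

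The first comparison was siINTS11 against siCtrl within each line, over 20687 genes in U2OS and 20441 in U2OS-AsiSI. Of the 39 HOX genes 21 passed the count filter in U2OS, and 16 of these passed an adjusted p of 0.05 (edgeR quasi-likelihood test), 8 higher and 8 lower. Of all genes tested 66.9% did so, 34.5% higher and 32.4% lower. In U2OS-AsiSI 14 of 20 passed, 7 higher and 7 lower, against 68% of all genes (35.4% and 32.6%). HOX genes were thus called at a share near that of all genes. Their median log2 fold change was 0.13 in U2OS and 0.17 in U2OS-AsiSI, beside 0.02 and 0.03 over all genes. Of the 20 tested in both lines, 6 rose in both, 7 fell in both, 1 was called in opposite directions, 1 was called in 1 line only and 5 in neither. In bulk libraries, less RNA per cell and fewer cells making it cannot be told apart.

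These directions are relative to a typical gene. With library totals alone as the scale, the median over all genes was 0.22 in each line in place of 0.02 and 0.03, and the HOX calls became 9 higher and 5 lower in U2OS and 11 higher and 4 lower in U2OS-AsiSI. The HOX medians on that scale were 0.33 and 0.36. Shares of all genes called on it are not given here, so these counts show no excess of HOX rises.

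**Figure D3:**
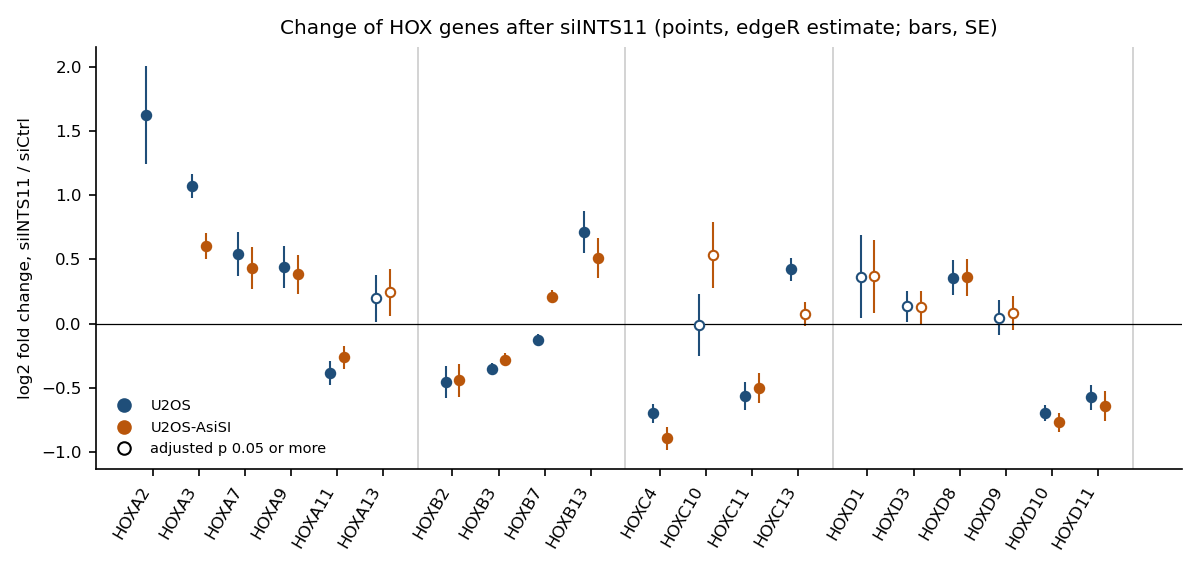
Log2 fold change of siINTS11 over siCtrl for the HOX genes drawn, with SE, by cluster and paralogue group. Filled points passed an adjusted p of 0.05; HOXA3 rose most among genes tested in both lines (1.07 and 0.60), and HOXC4 and HOXD10 fell most.

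Of the HOXA genes tested, 5 of 7 rose and 1 fell in U2OS, where 34.5% of all genes rose, and 4 of 6 rose and 1 fell in U2OS-AsiSI, where 35.4% did. The U2OS count includes HOXA2, which passed the filter only through its siINTS11 libraries and so could enter only as a rise.

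HOXA3 (chromosome 7, 27106184 to 27152581, minus strand), needed for the thymus and other pharyngeal organs, showed the largest rise among HOX genes with over 100 reads. Its reads came from 22323 bases at its 3′ end (48.1% of the span, 27106184 to 27128506), of which 17.3% are exonic in GENCODE 29. In U2OS it went from 4.52, 5.37 and 4.66 CPM to 10.8, 10.7 and 9.93 (replicates 1 to 3 of siCtrl, then of siINTS11, here and below), or by 1.07 on the log2 scale (SE 0.09, edgeR adjusted p 1.49e-13). In U2OS-AsiSI it went from 5.36, 5.51 and 5.70 CPM to 7.20, 8.59 and 9.35, or by 0.60 on that scale (SE 0.10, edgeR adjusted p 5.23e-06). The groups were apart in both lines, with the 3 U2OS siINTS11 libraries above all others.

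HOXA11 (27181157 to 27185232, minus strand), a gene of the forearm and kidney, was the HOXA gene that fell. It went from 8.63, 7.77 and 7.34 CPM to 6.47, 6.51 and 5.52 in U2OS, and from 8.24, 8.62 and 9.98 to 7.65, 7.57 and 7.02 in U2OS-AsiSI. Groups were apart in each line, although by little in U2OS-AsiSI, and the log2 fold changes were -0.39 (SE 0.10, edgeR adjusted p 0.000478) and -0.26 (SE 0.09, edgeR adjusted p 0.0127). With library totals alone neither passed (adjusted p 0.0936 and 0.509), and in U2OS-AsiSI the call also ended without siCtrl replicate 3 or siINTS11 replicate 3 (adjusted p up to 0.0869).

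Among HOXA genes with fewer reads, HOXA7 rose by 0.54 (U2OS) and 0.43 (U2OS-AsiSI) and HOXA9, which acts in blood progenitors and leukaemia, by 0.44 and 0.38 on the log2 scale. HOXA7 had 40 to 100 reads per library and HOXA9 40 to 100, and single libraries decided these calls: HOXA7 lost its call in U2OS without siINTS11 replicate 1 (adjusted p 0.14) and in U2OS-AsiSI without siCtrl replicate 1 or siINTS11 replicate 3 (up to 0.117), and HOXA9 lost it without siCtrl replicate 1 or siINTS11 replicate 1 of U2OS (up to 0.165) and in 4 of 6 such fits of U2OS-AsiSI (up to 0.16). Under DESeq2 HOXA9 passed in neither line and HOXA7 did not pass in U2OS-AsiSI (adjusted p 0.113). HOXA2, a gene of the hindbrain and face, was tested in U2OS alone, with 7, 4 and 4 reads under siCtrl and 21, 16 and 13 under siINTS11 (log2 fold change 1.62, SE 0.38). HOXA13, a gene of the digits, did not pass (0.20 and 0.24).

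**Figure D4:**
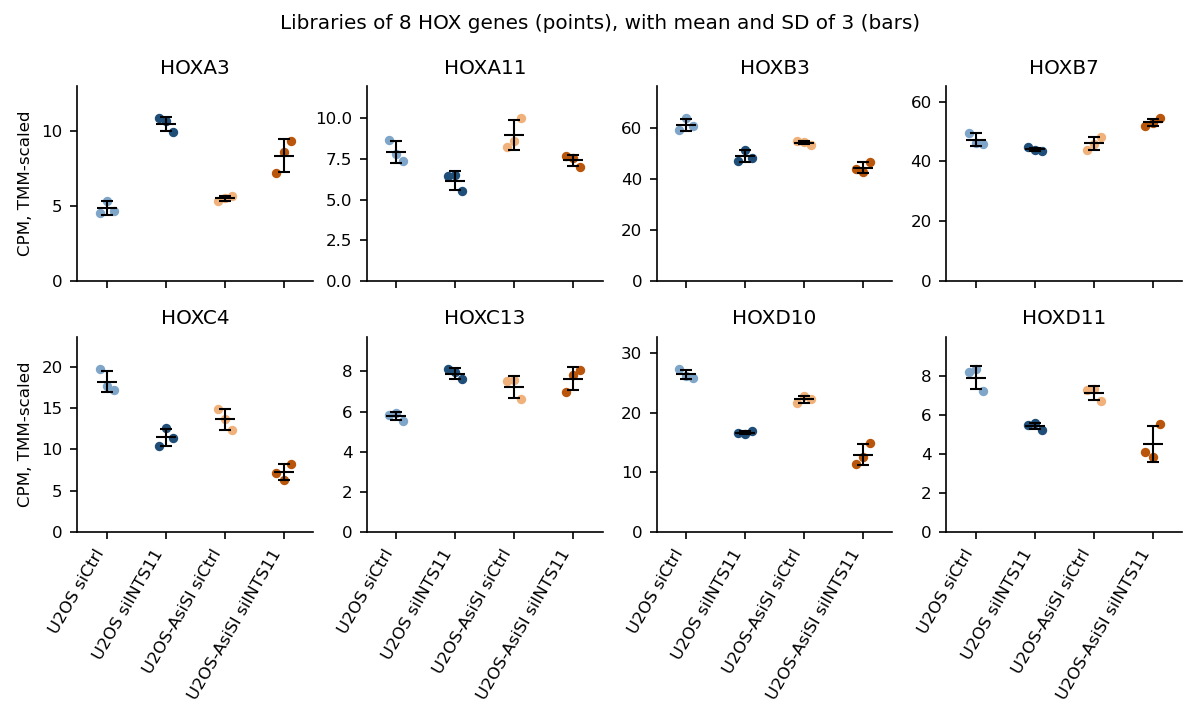
CPM in each library (points) with mean and SD of 3 (bars) for 8 HOX genes, on axes from 0. HOXA11, HOXC4, HOXD10 and HOXD11 are lower under siINTS11 in both lines, HOXA3 is higher, and HOXB7 is lower in U2OS and higher in U2OS-AsiSI.

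HOXB held the most reads. HOXB3 (chromosome 17, 48548870 to 48604912, minus strand), a hindbrain and neck gene, is countable over 69.1% of its span. Its CPM went from 59.1, 63.8 and 61.0 to 47.2, 51.6 and 48.2 in U2OS, and from 55.0, 54.5 and 53.6 to 43.9, 42.8 and 46.9 in U2OS-AsiSI. No siINTS11 library reached a siCtrl library of its line, and the log2 fold changes were -0.35 (SE 0.05, edgeR adjusted p 5.07e-09) and -0.28 (SE 0.05, edgeR adjusted p 1.25e-05). The call in U2OS-AsiSI ended with library totals alone (-0.09, adjusted p 0.123).

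HOXB7 (48607232 to 48633572, minus strand), found at high levels in several cancers, went from 49.7, 46.1 and 45.8 CPM to 44.7, 43.7 and 43.7 in U2OS, and from 44.0, 45.9 and 48.3 to 51.9, 52.9 and 54.4 in U2OS-AsiSI. The siINTS11 libraries were thus below siCtrl in U2OS and above it in U2OS-AsiSI, with no overlap in either line. Log2 fold changes were -0.13 (SE 0.05, edgeR adjusted p 0.0154) and 0.21 (SE 0.05, edgeR adjusted p 0.0005). The U2OS value was the less stable one: it was 0.07 (adjusted p 0.208) with library totals alone, and lost its call without siCtrl replicate 1 or siINTS11 replicate 2 (adjusted p up to 0.119).

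HOXB2 (48540894 to 48544989, minus strand), which sets hindbrain identity, went from 3.68, 3.59 and 3.42 CPM to 2.90, 2.55 and 2.49 in U2OS, and from 3.56, 4.48 and 4.02 to 2.93, 2.91 and 3.01 in U2OS-AsiSI. It fell by 0.46 (SE 0.13, edgeR adjusted p 0.00187) and 0.44 (SE 0.13, edgeR adjusted p 0.00289) on the log2 scale with the groups apart. Neither passed with library totals alone (adjusted p 0.0812 and 0.0934). HOXB13, a prostate lineage gene at the far end of the cluster, rose by 0.71 (SE 0.16, edgeR adjusted p 0.000168) and 0.51 (SE 0.16, edgeR adjusted p 0.00566), from 38 to 67 reads per siCtrl library to 52 to 95 under siINTS11.

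HOXC4 fell furthest in its cluster. HOXC4 (chromosome 12, 54016931 to 54056030, plus strand), a cervical and upper thoracic gene, was counted only over its 3′ part from 54035362 to 54056030, where 10.8% of bases are exonic. Its CPM went from 19.7, 17.7 and 17.2 to 10.4, 12.5 and 11.4 in U2OS, and from 14.9, 13.7 and 12.4 to 7.20, 6.34 and 8.25 in U2OS-AsiSI. The log2 fold changes were -0.70 (SE 0.07, edgeR adjusted p 7.4e-11) and -0.89 (SE 0.09, edgeR adjusted p 5.88e-10), the groups were apart, and the call held in all 12 alternative fits of each line.

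HOXC11 (53973126 to 53977643, plus strand), which acts in the hindlimb and kidney, went from 6.52, 6.11 and 5.43 CPM to 4.38, 4.09 and 3.99 in U2OS. In U2OS-AsiSI it went from 5.36, 5.33 and 5.63 CPM to 3.67, 3.30 and 4.42. It fell by 0.56 (SE 0.11, edgeR adjusted p 1.25e-05) and 0.50 (SE 0.12, edgeR adjusted p 0.000373) on the log2 scale, with no overlap and in all 12 alternative fits of each line.

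HOXC13 (53938831 to 53946544, plus strand), a regulator of hair keratins, went from 5.83, 5.94 and 5.54 CPM to 8.10, 7.98 and 7.60 in U2OS. Its U2OS-AsiSI libraries overlapped, with 7.53, 7.58 and 6.61 CPM for siCtrl and 6.99, 7.84 and 8.08 for siINTS11. It rose in U2OS (0.42, SE 0.09, edgeR adjusted p 0.000105), and its U2OS-AsiSI value was 0.08 (SE 0.09, edgeR adjusted p 0.485). The test of that difference missed the threshold (-0.38, SE 0.13, edgeR adjusted p 0.0831). HOXC10, with 14 to 35 reads from 780 countable bases, did not pass in either line (-0.01 and 0.53).

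In HOXD, 2 tested genes fell and 1 rose in each line, and 3 had no call. Of all genes tested 32.4% fell and 34.5% rose in U2OS, and 32.6% and 35.4% in U2OS-AsiSI. HOXD10 (chromosome 2, 176108790 to 176119942, plus strand), a gene of the hindlimb and its motor neurons, went from 27.2, 26.2 and 25.9 CPM to 16.5, 16.5 and 17.0 in U2OS, and from 21.7, 22.8 and 22.3 to 11.4, 12.6 and 14.96 in U2OS-AsiSI. The log2 fold changes were -0.70 (SE 0.06, edgeR adjusted p 1.1e-13) and -0.77 (SE 0.08, edgeR adjusted p 2.6e-10). The 10188 countable bases of HOXD10 begin at position -7023 relative to its RefSeq start, so most lie before that start. Which start gave the HOXD10 reads was not tested. HOXD11 (176104216 to 176109754, plus strand), a forearm and kidney gene like HOXA11, went from 8.16, 8.31 and 7.23 CPM to 5.47, 5.56 and 5.24 in U2OS. In U2OS-AsiSI it went from 7.26, 7.33 and 6.69 to 4.09, 3.83 and 5.55 CPM. It fell by 0.58 (SE 0.09, edgeR adjusted p 1.12e-06) and 0.64 (SE 0.11, edgeR adjusted p 1.23e-05) on the log2 scale. Both genes were apart between siRNAs in each line and were called in all 12 alternative fits of each line; their spans overlap, and the shared bases gave reads to neither.

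HOXD8 (176129694 to 176132695, plus strand) rose, from 2.55, 2.26 and 2.29 CPM to 3.20, 3.14 and 2.91 in U2OS and from 2.14, 3.20 and 3.54 to 3.67, 3.96 and 3.73 in U2OS-AsiSI, where siCtrl replicate 1 lay low. The log2 fold changes were 0.36 (SE 0.14, edgeR adjusted p 0.0191) and 0.36 (SE 0.14, edgeR adjusted p 0.0276), and both calls ended under DESeq2 (adjusted p 0.1 in U2OS). They also ended without siCtrl replicate 2 or siINTS11 replicate 1 of U2OS (adjusted p up to 0.0679), and without siCtrl replicate 1 or siINTS11 replicate 2 or 3 of U2OS-AsiSI (up to 0.268). HOXD3 (176136612 to 176173102, plus strand), which shapes the upper neck vertebrae, gave 3.93, 3.87 and 3.42 CPM and then 4.65, 4.32 and 3.61 in U2OS, and 2.99, 3.41 and 3.29 and then 3.07, 3.57 and 3.90 in U2OS-AsiSI. Its groups overlapped and its values of 0.13 in each line did not pass. Neither did HOXD9 (0.05 and 0.08) or HOXD1 (0.37 and 0.37), the latter on 5 to 18 reads per library.

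Paralogue group 11 was the group whose 3 tested members all went the same way in both lines: HOXA11, HOXC11 and HOXD11 fell in U2OS (-0.39 to -0.58) and in U2OS-AsiSI (-0.26 to -0.64). Other groups with 2 or more tested members were mixed or included members without a call, except group 7 in U2OS-AsiSI, where HOXA7 and HOXB7 rose. Group 11 was picked after all groups had been seen, and of all genes tested 32.4% fell in U2OS and 32.6% in U2OS-AsiSI. With library totals alone HOXA11 passed in neither line, so the agreement of the group depends on the scaling. The 250 bases before the RefSeq start are shown for HOXA11 (chr7:27185233-27185482, minus strand) and HOXD11 (chr2:176107030-176107279, plus strand), paralogues that fell from different chromosomes, with CG pairs, the sites of DNA methylation, in capitals (GRCh38.p14).
HOXA11: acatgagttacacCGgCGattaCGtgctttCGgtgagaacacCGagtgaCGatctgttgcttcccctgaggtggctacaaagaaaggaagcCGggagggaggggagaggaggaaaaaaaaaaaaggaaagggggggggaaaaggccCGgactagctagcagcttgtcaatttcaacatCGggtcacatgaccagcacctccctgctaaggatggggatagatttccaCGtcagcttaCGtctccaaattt
HOXD11: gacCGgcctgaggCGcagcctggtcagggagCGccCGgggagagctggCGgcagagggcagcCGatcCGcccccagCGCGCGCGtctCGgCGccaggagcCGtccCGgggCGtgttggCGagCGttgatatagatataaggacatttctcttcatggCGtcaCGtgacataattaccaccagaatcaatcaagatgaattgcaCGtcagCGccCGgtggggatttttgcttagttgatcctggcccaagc
The HOXA11 stretch holds 11 CG pairs and overlaps exons of its antisense RNA HOXA11-AS, and the HOXD11 stretch holds 23. The countable bases of HOXA11 begin at its RefSeq start. Those of HOXD11 begin at position -3064 relative to its start, so the HOXD11 stretch lies within the counted span. Which start gave the HOXD11 reads was not tested. Windows of 300 bases (250 before to 50 after the start) matched 20 of 39 HOX genes, 27 windows in all. These are not independent, as HOXA3 and HOXA10 gave more than 1 each and HOXC4 and HOXC5 share the same window. The 27 windows had a median of 22 CG pairs, beside 14 in all 35116 RefSeq windows, at a GC content of 58% and 58.7%. The AsiSI site GCGATCGC, the same on both strands, was in 0 of the 27, beside 0.208% of all windows. TATAAA on either strand (TTTATA on the other) was in 5 of 27 (18.5%), both windows of HOXA10 among them, beside 11.5% of all.

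By position, anterior genes (groups 1 to 3) counted 3 higher and 2 lower of 7 tested in U2OS and 2 higher and 2 lower of 6 in U2OS-AsiSI. Central genes (groups 4 to 8) counted 2 higher and 2 lower of 4, and 3 higher and 1 lower of 4. Posterior genes (groups 9 to 13) counted 3 higher and 4 lower of 10, and 2 higher and 4 lower of 10. Each class held both directions. Of all genes tested 34.5% rose and 32.4% fell in U2OS, and 35.4% and 32.6% in U2OS-AsiSI. The anterior rises in U2OS include HOXA2, which could enter only as a rise. Across genes, as a description, Spearman's rho of log2 fold change with paralogue group was -0.11 in U2OS and -0.16 in U2OS-AsiSI over the 20 genes tested in both lines. With the siCtrl level per countable kb it was -0.56 and -0.29, beside -0.28 and -0.23 over all genes tested; the fold change and that level share the siCtrl libraries.

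Totals were then compared by cluster, in CPM scaled within each line. They compare the siRNAs within a line, and not the lines with each other or a cluster with the gene levels above. Summed over members, HOXA went from 20.3 ± 0.954 to 27.5 ± 1.73 CPM in U2OS (SD, n = 3; log2 difference 0.44) and from 25.6 ± 2.44 to 30.9 ± 1.78 in U2OS-AsiSI (0.28). HOXB went from 112 ± 2.39 to 94.95 ± 1.81 CPM (-0.24) and from 109 ± 2.02 to 106 ± 3.33 (-0.04). HOXC went from 30.5 ± 2.14 to 23.5 ± 0.992 CPM (-0.37) and from 27.7 ± 1.54 to 20.3 ± 2.01 (-0.45). HOXD went from 43.0 ± 1.89 to 31.7 ± 0.124 CPM (-0.44) and from 39.7 ± 1.51 to 29.2 ± 3.27 (-0.45). By exact permutation (two-sided) p was 0.1, the lowest possible with 3 libraries a group, except for HOXB in U2OS-AsiSI (exact p 0.3). Adjusted over the 8 tests they were 0.114 and 0.3, so the design cannot reach 0.05. Over members with fully countable spans only, which in HOXD are HOXD8, HOXD9, HOXD12 and HOXD13, the HOXD difference was 0.20 in U2OS and 0.27 in U2OS-AsiSI.

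Within HOX reads, which no scaling of libraries affects, the share of HOXA went from 9.88% ± 0.182 to 15.5% ± 0.863 in U2OS (SD, n = 3) and from 12.7% ± 1.00 to 16.6% ± 0.336 in U2OS-AsiSI. HOXC went from 14.8% ± 0.617 to 13.2% ± 0.394 and from 13.7% ± 1.01 to 10.9% ± 0.494. HOXD went from 20.9% ± 0.248 to 17.9% ± 0.296 and from 19.7% ± 0.443 to 15.7% ± 0.921. HOXB stayed the largest, at 54.4% ± 0.871 and 53.4% ± 0.561 in U2OS and at 53.9% ± 0.169 and 56.9% ± 1.40 in U2OS-AsiSI. The libraries of the siRNAs were apart in each case (exact permutation p 0.1) but for HOXB in U2OS (exact p 0.3).

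**Figure D5:**
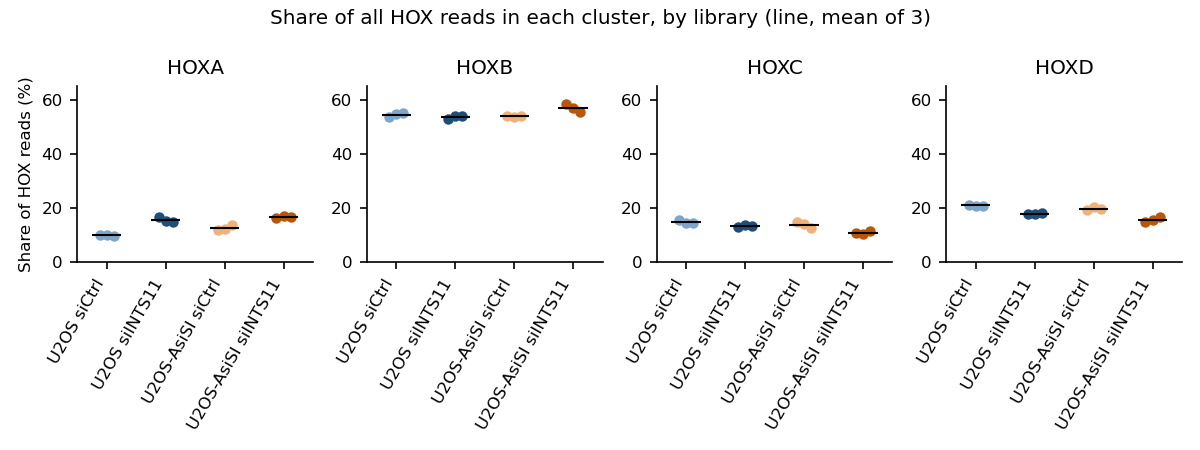
Percent of HOX reads in each cluster, by library (points) with the mean of 3 (line), on an axis from 0. HOXA rises from 9.88% to 15.5% in U2OS and from 12.7% to 16.6% in U2OS-AsiSI, while HOXC and HOXD are lower under siINTS11.

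The difference between the lines was tested directly, as the interaction of siRNA and line over 12 libraries. Of 21 HOX genes tested 2 passed, beside 3.87% of all 21521 genes (0.762% higher in U2OS-AsiSI, 3.1% lower). HOXB7 had a higher value in U2OS-AsiSI by 0.30 (SE 0.07, edgeR adjusted p 0.00838) and was called in all 18 alternative fits. HOXA3 had a lower one by 0.50 on the log2 scale (log2 difference -0.50, SE 0.14, edgeR adjusted p 0.0356). It was called in 3 of 18 alternatives, and the adjusted p was 0.0627 with median-of-ratios factors, 0.0804 under DESeq2 and 0.0204 to 0.14 with a library left out. For the other 19 genes the adjusted p was 0.0831 to 0.995, which does not show that they respond alike, and their SEs ran from 0.07 to 0.63.

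U2OS-AsiSI and U2OS were also compared under siCtrl, with the same siCtrl libraries that serve the comparisons above. Of 20 HOX genes tested 5 passed, beside 34.9% of all genes (17.8% higher and 17.2% lower). Of these, 2 were higher in U2OS-AsiSI and 3 lower. HOXC13 was higher by 0.33 (SE 0.10, edgeR adjusted p 0.00832), though it lost its call without U2OS-AsiSI siCtrl replicate 2 (adjusted p 0.0525). HOXC4 was lower by 0.41 (log2 difference -0.41, SE 0.08, edgeR adjusted p 8.23e-05), HOXD10 by 0.24 (-0.24, SE 0.06, edgeR adjusted p 0.0015) and HOXB3 by 0.17 (-0.17, SE 0.05, edgeR adjusted p 0.00412). The HOXB3 call ended with library totals alone (adjusted p 0.0638) and without U2OS siCtrl replicate 2 (0.0529).

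Other genes of the clusters were read from lists. Of 18 HOX cluster non-coding RNAs 13 were tested in each line, and 9 rose and none fell in U2OS (median 0.43), while 8 rose and 1 fell in U2OS-AsiSI (median 0.24). The rises include HOTTIP, tested in U2OS alone (0.87, libraries overlapping), and HOXA-AS3, tested in U2OS-AsiSI alone (1.21). A gene that passes the filter only through its siINTS11 libraries can enter only as a rise, so these may not be free counts. Called members were 69.2% in each line, near the 66.9% and 68% of all genes, of which 34.5% and 35.4% rose. Among them HOXB-AS3, an antisense RNA of the HOXB cluster, rose by 1.08 (SE 0.13) and 0.84 (SE 0.12). HOXC13-AS rose by 0.69 (SE 0.23) and 0.95 (SE 0.22). HAGLR, an antisense RNA of the HOXD cluster, fell in U2OS-AsiSI (-0.47, SE 0.13) and had -0.17 (SE 0.11, edgeR adjusted p 0.174) in U2OS. Strands were kept apart in counting, as 2249 genes fully covered once the opposite strand is included reached 10 reads or more.

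TALE cofactors, which bind DNA together with HOX proteins, counted 1 higher and 5 lower of 9 in U2OS and 2 higher and 5 lower in U2OS-AsiSI, or 66.7% and 77.8% called beside 66.9% and 68% of all genes. PKNOX2 rose by 1.34 (SE 0.12) and 1.72 (SE 0.16) on the log2 scale, and MEIS1 fell by 0.29 (SE 0.04) and 0.40 (SE 0.05). Polycomb and trithorax genes, whose products hold HOX genes off or on, counted 6 higher and 8 lower of 24 in U2OS and 7 higher and 9 lower in U2OS-AsiSI, or 58.3% and 66.7% called, no more than among all genes. EZH1 fell by 0.61 (SE 0.06) and 0.86 (SE 0.06), and KMT2A, which keeps HOX genes active, by 0.50 (SE 0.04) and 0.46 (SE 0.05). Of 12 cluster neighbours 7 were tested, with 2 higher and 4 lower in U2OS and 2 higher and 3 lower in U2OS-AsiSI. That is 85.7% and 71.4% called on these 7 genes, beside 66.9% and 68% of all genes. LNPK and MTX2, on either side of HOXD, fell by 0.54 (SE 0.04) and 0.62 (SE 0.05) and by 0.30 (SE 0.04) and 0.29 (SE 0.05), and TTLL6, beside HOXB, rose by 1.12 (SE 0.21) and 1.29 (SE 0.24). Of 6 ParaHox genes, relatives of the HOX genes outside the clusters, CDX2 fell by 0.42 (SE 0.16) and 0.49 (SE 0.14). PDX1 was tested in U2OS-AsiSI alone, where it rose (0.99, SE 0.39) with overlapping libraries. It too may have been able to enter only as a rise.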

How the data were processed

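TT-seq libraries of nascent RNA numbered 12 and were grouped and numbered by the sample titles. The deposited tables hold whole-number read counts per gene over the gene span, made by the authors with Trimmomatic 0.36, STAR 2.7 and featureCounts on hg38, per the submitters' processing notes; the settings for strand and overlap are not given in the sources used here. All count columns matched a sample, and 0 rows were yeast spike-in genes, so changes in total RNA output were not analysed here.

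The test was that of edgeR 4.0.16, run in R 4.3.3 (filterByExpr, TMM, glmQLFit with robust estimation, glmQLFTest, two-sided) on the whole table, over the 6 libraries compared or all 12 for the difference between lines. Benjamini-Hochberg adjustment covered all genes tested, with a threshold of 0.05. The SE of a log2 fold change is its size divided by the square root of F. Single values were compared by exact two-sided permutation of 3 against 3 libraries (scipy 1.17.1). Levels of genes in CPM use 1 TMM scaling over all 12 libraries. Cluster totals in CPM use the TMM scaling fitted within each line, so they are not on the scale of the gene levels. The scripts were tested on simulated data. Library depth of 20704611 to 38065726 reads sets the counting error, and intervals and SEs do not treat duplicate reads as such, as no molecular identifiers are named.

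HOX genes were matched by symbol; all 39 are in GENCODE 29, 17 with the same coordinates, and coordinates are those of the tables (hg38). Members and lists were chosen with earlier results of these data known. Genes with a mean of at least 100 reads in a group are given by library, the others by range and count, and from each other list up to 3 members with the smallest adjusted p in U2OS-AsiSI. Alternatives were median-of-ratios factors, library totals alone, a minimum mean count of 50, no filter, DESeq2 1.42.0, the replicate number as a block and each library left out. Within groups, replicates were further apart than sampling noise (chi-square per degree of freedom 1.84 to 3.06), so none was taken for a repeat of another library; this does not show separate cultures. Figures were drawn with matplotlib 3.10.9. Some genes that enter the counts and totals are not reported here or drawn in the figures.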

Additional observations from a re-analysis of the deposited data

Results flagged for a closer look

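In 2 HOX genes the siINTS11 effect differed between the lines by the interaction test. The values, as U2OS-AsiSI minus U2OS on the log2 scale, were 0.30 for HOXB7 and -0.50 for HOXA3, and the latter was called in 3 of 18 alternative fits. In the other gene lists the test passed for HOXA-AS2 (-0.46, antisense to HOXA3), EZH1 (-0.28), KDM6B (0.35), a demethylase of the Polycomb mark, and the bone marker RUNX2 (-0.26), with edgeR adjusted p of 0.0438, 0.0458, 0.032 and 0.0213. Of 18 alternative fits, HOXA-AS2 and EZH1 passed in 2 each, RUNX2 in 9 and KDM6B in 11. With a library left out, adjusted p reached 0.159, 0.187, 0.119 and 0.114 for HOXA-AS2, EZH1, RUNX2 and KDM6B. HOXA-AS2 rose by 0.64 (SE 0.10) in U2OS and by 0.22 (SE 0.10) in U2OS-AsiSI, the same order as HOXA3. KDM6B had 0.11 (SE 0.07) in U2OS and rose by 0.50 (SE 0.06) in U2OS-AsiSI. No cause was tested.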

How the results depend on the processing

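With library totals alone, 5 HOX genes were lower in U2OS, and 11 were higher and 4 lower in U2OS-AsiSI. On that scale the median over all genes rose too, and shares of all genes called are not given. DESeq2 left 4 higher in U2OS-AsiSI. The lower call for the difference between lines went to 0 with median-of-ratios factors, library totals, no filter, a minimum mean of 50 and DESeq2. With a library left out, higher calls ran from 5 to 8 in U2OS, from 4 to 8 in U2OS-AsiSI and from 2 to 4 between the lines under siCtrl, and lower calls for the difference from 0 to 1. Signs turned for HOXB7 in U2OS with library totals (0.071) and, among genes without a call in U2OS, for HOXC10 (0.19 with totals, -0.13 to 0.17 with a library left out) and HOXD9 (-0.058 to 0.12 with a library left out). The causes were not tested.

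Over fully countable members alone, cluster totals turned to 0.0085 for HOXB in U2OS and to 0.20 and 0.27 for HOXD in U2OS and U2OS-AsiSI, and shares to 1.28 and 2.33 points for HOXD and -1.15 for HOXB in U2OS-AsiSI. That set leaves out all 12 partly countable genes. HOXB in U2OS-AsiSI was 0.15 with library totals and 0.11 as a mean of log2 values, and HOXD there 0.086 as such a mean. Per kb countable, HOXB3 stood at 1.58, HOXB7 at 2.75, HOXC4 at 0.88 and HOXD10 at 2.60. With library totals, TALE cofactors counted 3 higher and 3 lower in U2OS and 3 lower in U2OS-AsiSI, Polycomb and trithorax genes 14 higher and 5 lower in U2OS and 11 and 5 in U2OS-AsiSI, neighbours 2 lower in U2OS, and non-coding RNAs 0 lower in U2OS-AsiSI. These counts too stand without the shares of all genes on that scale.

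Same-numbered replicates did not deviate together (r from -0.11 to 0.14 over 12 pairs, 4 matching their own number best). The main fit used no pairs, and this check cannot exclude a batch shared by number. With the replicate block, HOX calls were 8 higher and 8 lower in U2OS, 8 and 7 in U2OS-AsiSI, 1 and 1 for the difference, and 3 and 3 between the lines under siCtrl. The near-silent genes numbered 18 at a mean of 5 and 20 at a mean of 20. Genes with few reads and the uncountable 12 set the limit of what these counts show.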
